A study of Mus musculus with 12 samples.

Results

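The genes described here encode proteins of the Z-disc, the M-band and the costamere of heart muscle, with titin, myosin binding protein C, tropomyosin and the factors that assemble and maintain the sarcomere. They were taken from a list of 37 genes that leaves out the troponins, myosins and actins. Of these, 35 had a probe set assigned to 1 gene, among 18193 such genes on the array, and 33 were among the 9667 genes tested. The other 2 genes with a probe set, Synm (synemin, an intermediate filament protein) and Trim54 (a MuRF ubiquitin ligase), stayed at or below the detection floor of 82.5 signal units on all 12 arrays. Their signals were at most 10.3 and 5.64 units. Xirp2 and Trim55 had no probe set assigned to 1 gene and were not analysed here.

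Embryonic mouse cardiac ventricles, taken at day 16.5 of gestation, gave total RNA for 12 Affymetrix arrays, 3 for each of 4 genotypes. Double-null ventricles lacked both Hdac2 and Hopx, Hdac2-null ventricles lacked Hdac2 with Hopx intact, Hopx-null ventricles lacked Hopx with Hdac2 intact, and wild-type (WT) ventricles carried both. The Hdac2 protein removes acetyl groups from histones, and Hopx is a homeodomain-only protein of cardiac muscle that lacks DNA-binding activity of its own. The alleles, the strain, and whether the deletion was in the whole animal or in 1 cell type are not given in the sources used here. Both targeted transcripts matched the labels. Hdac2 was below the floor where it was deleted, and averaged 4.15 ± 0.148 units in double-null, 4.05 ± 0.0049 in Hdac2-null, 4903 ± 679 in Hopx-null and 4839 ± 314 in WT ventricles (SD, n = 3 each). Hopx averaged 1699.7 ± 38.6, 12042 ± 317, 1992 ± 111 and 9817 ± 2082 units in the same order, and so stayed above the floor in the nulls.

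In the sarcomere, actin filaments are anchored in the Z-disc by alpha-actinin, and titin spans from the Z-disc to the M-band, where myomesins crosslink the thick filaments. Costameres tie the Z-discs of the outer myofibrils to the cell membrane through proteins such as vinculin and filamin, and desmin filaments link neighbouring Z-discs. Several of these proteins also carry signals or act in protein quality control, and many of the genes are known causes of inherited cardiomyopathy in humans.

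Correlations of log2 signal between arrays ran from 0.992 to 0.998, and all 6 ventricular cardiomyocyte markers were above the floor, with summed signals of 171632 to 174245 units in double-null and 174200.0 to 175595 units in WT ventricles. Of 15 skeletal muscle markers, 11 were at or below the floor on every array, among them Myod1, Myog, Myf5, Myf6 and Pax7. Xist, the X-inactivation transcript of female cells, was between 4988 and 6130.4 units on replicate 1 of each genotype and on WT replicate 2, and at most 22.2 units on the other 7 arrays. The Gapdh 3′ to 5′ log2 ratio, a measure of RNA integrity, was 1.33 on WT replicate 1 and 0.842 to 1.07 on the other 11 arrays. The same ratio for beta-actin was higher on every array, from 2.63 on Hdac2-null replicate 2 to 2.80 on WT replicate 2. Hdac2-null replicate 3 was the only array with the liver transcripts Alb (176 units) and Afp (205 units) above the floor, and its summed liver signal was 580 units against at most 151 on any other array.

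No tested gene of the group passed the threshold of an adjusted p under 0.05 in any of 7 comparisons (limma, Benjamini-Hochberg adjustment over all 9667 genes within each comparison). Few genes of the whole array did so. In double-null against WT 0.031% of all tested genes were called, in Hdac2-null against WT 0.0207%, in Hopx-null against WT 0.0103%, in double-null against Hdac2-null 0.0103%, in double-null against Hopx-null 0.0207%, in Hdac2 absent against present 0.0207%, and in the interaction of the 2 losses 0%. A difference is therefore given below as a measured value with its standard error (SE) from the shared fit, on the log2 scale, and with its 95% interval where that helps. All differences compare RNA of whole ventricles, in which fewer cells of a type and less RNA per cell cannot be told apart.

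The lowest p-values of the group in double-null against WT ventricles belonged to the Z-disc gene Tcap, the thick filament gene Mybpc3 and the M-band gene Myom2, all with lower signal in double-null ventricles. Most genes of the group lay close to 0: 23 of 33 were within 0.1 log2 units of it, as were 54.6% of all tested genes, and 29 of 33 intervals stayed inside a 1.5-fold change in either direction. The 4 that reached beyond 1.5-fold were Hspb7, Myom2, Pdlim3 and Tcap. These counts hold for the brightest probe set of each gene. Dimmer probe sets of some genes lay further from 0, such as 1 of Ldb3 at -0.65 and 1 of Nebl at 0.31 (given below). The median log2 difference was -0.02 over the 33 genes and -0.01 over all tested genes, with 20 of the 33 lower in double-null ventricles against 54.6% of all tested genes. With the arrays centred on their medians the median of the 33 was 0.00118, so the sign of this small shift depended on the scaling.

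**Figure D1:**
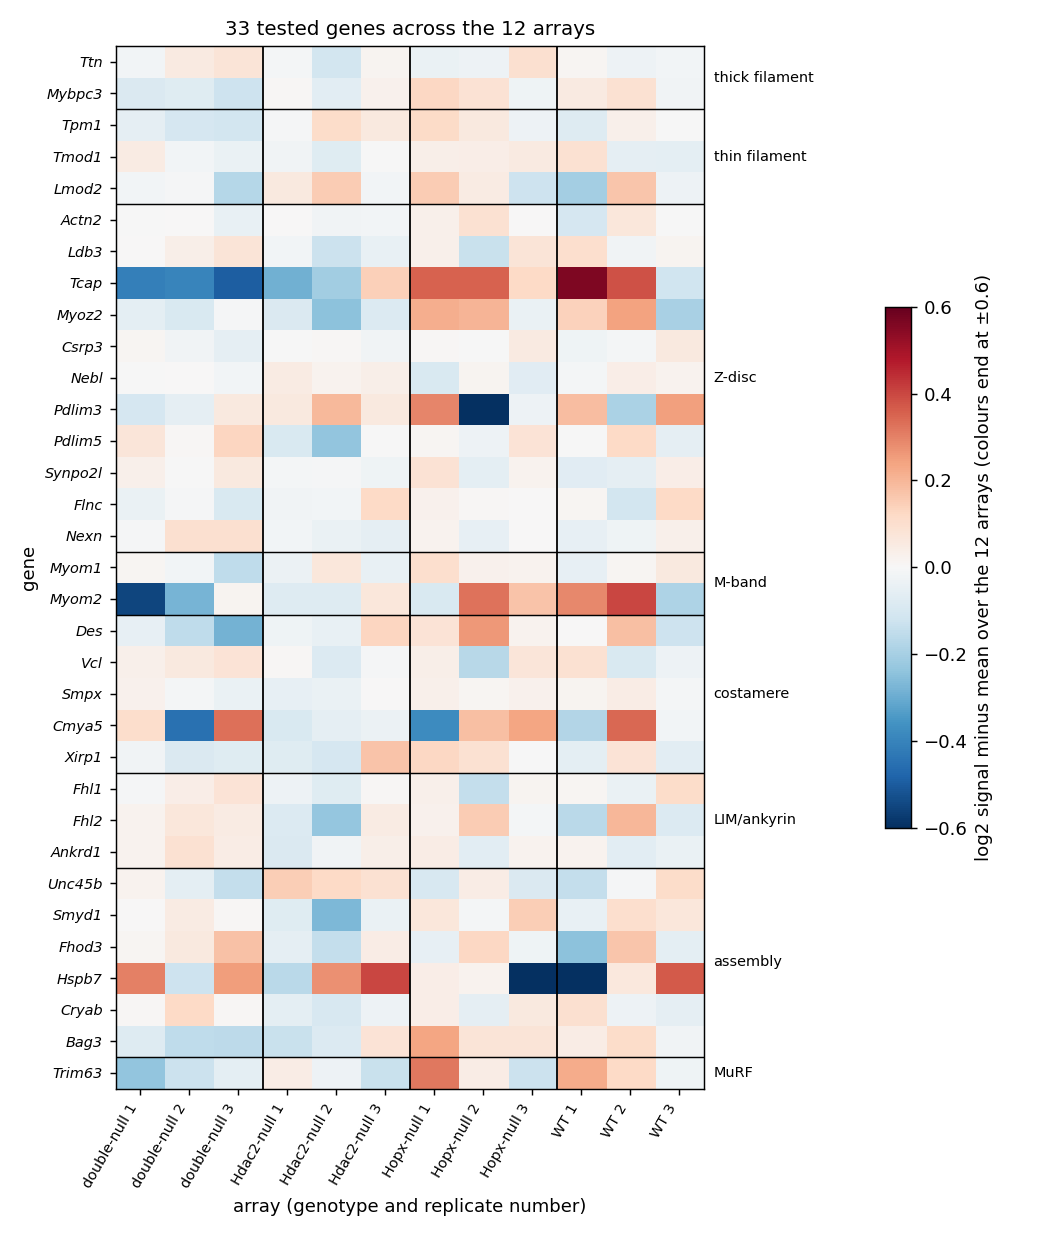
Log2 signal of the 33 tested genes (rows, in groups by role) on each of the 12 arrays (columns, by genotype and replicate), minus the gene's mean over the 12 arrays. Red is above and blue below that mean, colours end at ±0.6, and Tcap is below its mean on all 3 double-null arrays while most rows stay pale.

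Titin, encoded by Ttn, is the giant elastic protein that runs between Z-disc and M-band. Its signals were 26767, 28154 and 28555 units in double-null, 26884, 25080.1 and 27437 in Hdac2-null, 26380.2, 26476 and 28948 in Hopx-null, and 27303, 26514 and 26751 in WT ventricles. The ranges of all genotypes overlapped, and the log2 difference between double-null and WT was 0.05 (SE 0.04, adjusted p = 0.783). Mybpc3 encodes cardiac myosin binding protein C, which sits on the thick filament and tunes cross-bridge cycling. It had 18808, 18958 and 18321 units in double-null, 20041, 19101 and 20321 in Hdac2-null, 21747, 21200.0 and 19594 in Hopx-null, and 20729.5, 21282 and 19669.6 in WT ventricles. All 3 double-null arrays were below the other 9. The difference was small beside those of Tcap and Myom2, -0.14 against WT (SE 0.04, 95% interval -0.23 to -0.04, adjusted p = 0.641) and -0.16 against Hopx-null (SE 0.04, adjusted p = 0.538).

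Tpm1 encodes alpha-tropomyosin, which lies along the actin filament and gates myosin binding. It had 28063, 27212 and 27029 units in double-null, 29035, 31431 and 30331 in Hdac2-null, 31587, 30348 and 28560.1 in Hopx-null, and 27654, 29729 and 29104 in WT ventricles. Double-null arrays were below all arrays of both single nulls and overlapped WT. The log2 difference was -0.14 against Hdac2-null (SE 0.04, adjusted p = 0.368), -0.14 against Hopx-null (SE 0.04, adjusted p = 0.538) and -0.07 against WT (SE 0.04, adjusted p = 0.709). With all its probe sets averaged, the difference against Hopx-null was 0.06 and that against WT 0.04. The pointed-end capping gene Tmod1 and the actin nucleator gene Lmod2 differed between double-null and WT by 0.01 and -0.04.

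Of 11 tested Z-disc genes, 4 had higher and 7 lower mean log2 signal in double-null than in WT ventricles, with a median difference of -0.02. Tcap encodes telethonin, the cap that joins the ends of a pair of titin molecules in the Z-disc. It had 742, 749 and 699 units in double-null, 807, 851 and 1088 in Hdac2-null, 1259, 1258 and 1069.6 in Hopx-null, and 1452, 1285 and 906 in WT ventricles. Every double-null array was below the other 9 arrays. Between Hdac2-null and WT the ranges overlapped through WT replicate 3, whose signal was below that of Hdac2-null replicate 3. Mean signals were 729.9 ± 26.8 units in double-null, 916 ± 151 in Hdac2-null, 1196 ± 109 in Hopx-null and 1214 ± 280 in WT ventricles (SD, n = 3 each).

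The log2 difference of Tcap between double-null and WT was -0.71 (SE 0.17, 95% interval -1.08 to -0.33, a fold of 0.612), with an unadjusted p of 0.00162 and an adjusted p of 0.594 in limma. Against Hopx-null it was -0.71 (SE 0.17, adjusted p = 0.538) and against Hdac2-null -0.32 (SE 0.17, adjusted p = 0.513), or -0.18 without Hdac2-null replicate 3. Hdac2-null ventricles differed from WT by -0.39 (SE 0.17, adjusted p = 0.925), or by -0.25 without WT replicate 1 and -0.59 without WT replicate 3, and Hopx-null ventricles from WT by 0.00 (SE 0.17, 95% interval -0.37 to 0.38). Averaged over the presence and absence of Hopx, Hdac2 absent against present gave -0.55 (SE 0.12, 95% interval -0.82 to -0.29, a fold of 0.683, adjusted p = 0.239). Over the 24 alternative fits, this difference ran from -0.65 to -0.48 with adjusted p from 0.0368 to 0.556, and passed the threshold only without WT replicate 3. Tcap is also strongly expressed in skeletal muscle. Markers listed for that tissue had summed signals of 11414 to 12206 units in double-null and 10336 to 13384 in Hdac2-null ventricles. In Hopx-null the sums were 12235 to 13179 and in WT ventricles 11074 to 14459 units. Among these markers Myod1, Myog, Tnnt3, Tnnc2, Myh3, Myh8, Mylpf and Actn3 were at or below the floor on every array. The sums came almost wholly from Ckm, Casq1, Acta1 and Myl1, and mostly from Ckm. These 4 markers above the floor did not all go in the same direction. Myl1 averaged 181 ± 61.3 units in double-null and 379 ± 159 in WT ventricles (SD, n = 3 each), and was lower on every double-null array than on any WT array. Casq1 averaged 4051 ± 344 units in double-null and 2767 ± 540.1 in WT ventricles, and was higher on every double-null array. Acta1, at 742 ± 203 units in double-null and 1733 ± 928 in WT ventricles, and Ckm, at 6865 ± 729 in double-null and 7848 ± 557 in WT ventricles, overlapped. The summed signal of atrial markers, of which 5 of 6 were above the floor on some array and Bmp10 on none, was 43772 to 56611 units in double-null, 47931 to 53249 in Hdac2-null, 50809.5 to 58966 in Hopx-null and 52419.6 to 64645 in WT ventricles. The part of these markers in the Tcap difference was not tested.

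**Figure D2:**
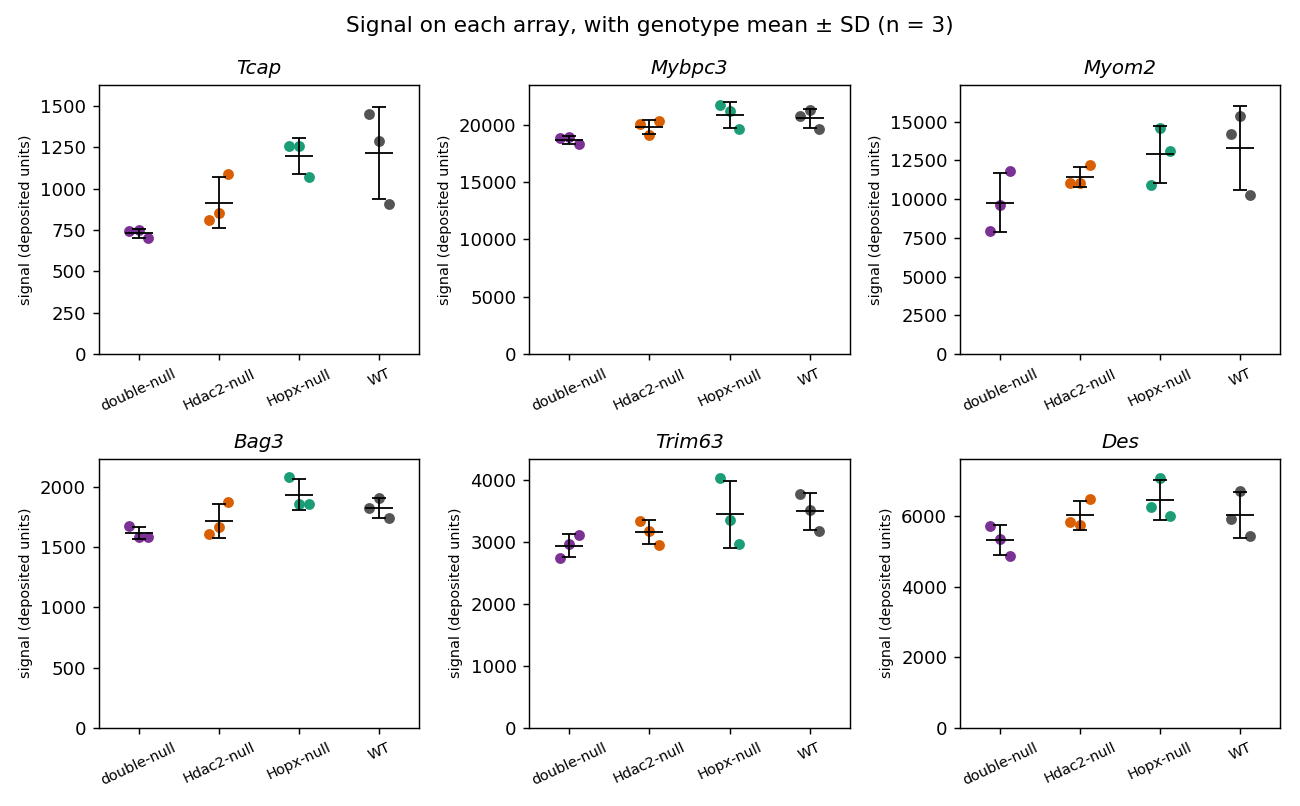
Signal in deposited units (vertical axes, each starting at 0) on each array for 6 genes, by genotype; points are arrays and bars are the mean ± SD (n = 3). For Tcap, Mybpc3, Bag3 and Trim63 the 3 double-null points lie below all 3 WT points, while for Myom2 and Des the 2 genotypes overlap.

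The other Z-disc genes showed smaller differences. Actn2 encodes alpha-actinin, the crosslinker of actin in the Z-disc. It had 23953, 24007 and 23234 units in double-null, 23979, 23600.2 and 23702 in Hdac2-null, 24475, 25549 and 23994 in Hopx-null, and 22328, 25148 and 23919 in WT ventricles. Every Hdac2-null array was below every Hopx-null array, and all other pairs of genotypes overlapped. The interval of the double-null against WT difference, -0.09 to 0.09, left out a 1.2-fold change. Csrp3, the muscle LIM protein of the Z-disc, had 31389, 30730.0 and 29986 units in double-null, 31102, 31335 and 30750.5 in Hdac2-null, 31272, 31159 and 32303 in Hopx-null, and 30608, 30950.0 and 32418 in WT ventricles. Csrp3 overlapped between all genotypes, at -0.03 (SE 0.03) in double-null against WT.

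Nebl encodes nebulette, a Z-disc protein that binds actin. It had 13064, 13116 and 12962 units in double-null, 13573, 13303 and 13441 in Hdac2-null, 12285, 13263 and 12513 in Hopx-null, and 12985, 13476 and 13299.8 in WT ventricles. Double-null arrays were below all Hdac2-null arrays and overlapped WT, at -0.02 (SE 0.03). Pdlim5 encodes the PDZ and LIM domain protein ENH, which binds alpha-actinin. It had 25083, 23941 and 26037 units in double-null, 22402, 20206 and 23775 in Hdac2-null, 24036, 23316 and 25213 in Hopx-null, and 23775, 25864 and 22987 in WT ventricles. Double-null arrays were above all Hdac2-null arrays, at 0.18 (SE 0.06, adjusted p = 0.371), and Hdac2-null differed from WT by -0.13 (SE 0.06, adjusted p = 0.925). Without Hdac2-null replicate 2 these were 0.12 and -0.07. Pdlim3, the alpha-actinin associated LIM protein, had 563, 582 and 628 units in double-null, 629, 692 and 628 in Hdac2-null, 739, 366 and 592 in Hopx-null, and 687, 530.3 and 716 in WT ventricles. Double-null arrays were below all Hdac2-null arrays by a margin smaller than the rounding of these values, and Hopx-null replicate 2 was the lowest of the 12.

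The calcineurin-binding Z-disc gene Myoz2 (calsarcin-1) differed by -0.19 in Hdac2 absent against present (SE 0.07, adjusted p = 0.529). The remaining Z-disc genes, Ldb3 (cypher), Synpo2l, Flnc (filamin C) and Nexn (nexilin), lay between -0.05 and 0.08 in double-null against WT. Nexn had the largest of these, 0.08 (SE 0.04, adjusted p = 0.677).

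Both M-band genes had lower mean log2 signal in double-null than in WT ventricles. Myom1 encodes myomesin, the main M-band crosslinker, and had 13059, 12815 and 11657 units in double-null, 12628, 13587 and 12572 in Hdac2-null, 13909, 13176 and 13132 in Hopx-null, and 12504, 13082 and 13509 in WT ventricles. It overlapped between double-null and WT, at -0.06 (SE 0.05). Myom2 encodes the M-protein and had 7948, 9605 and 11799 units in double-null, 11042, 11057 and 12212 in Hdac2-null, 10929, 14614 and 13114 in Hopx-null, and 14224, 15392 and 10245 in WT ventricles. Double-null and WT overlapped through 1 array of each, double-null replicate 3 and WT replicate 3. The difference was -0.44 (SE 0.17, 95% interval -0.81 to -0.06, adjusted p = 0.669), against -0.41 between double-null and Hopx-null (SE 0.17, adjusted p = 0.562), or -0.27 without double-null replicate 1.

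Of 5 tested intermediate filament, costamere and intercalated disc genes, 1 had higher and 4 had lower mean log2 signal in double-null than in WT ventricles. Des encodes desmin, the muscle intermediate filament that links Z-discs. It had 5723, 5339 and 4875 units in double-null, 5828, 5739 and 6485 in Hdac2-null, 6266, 7085 and 6009 in Hopx-null, and 5927, 6719 and 5444 in WT ventricles. Double-null arrays were below all arrays of both single nulls but overlapped WT. The log2 difference was -0.28 against Hopx-null (SE 0.09, adjusted p = 0.538), -0.18 against Hdac2-null (SE 0.09, adjusted p = 0.488) and -0.18 against WT (SE 0.09, adjusted p = 0.674). Against WT it was -0.10 without WT replicate 2, and it was -0.12 against either of Hdac2-null and WT without double-null replicate 3. Smpx encodes a small muscle protein of the costamere and had 25542, 24891 and 24403 units in double-null, 24212, 24406 and 25088 in Hdac2-null, 25616, 25252 and 25548 in Hopx-null, and 25374, 25833 and 24907 in WT ventricles. Its interval in double-null against WT, -0.08 to 0.03, was among the narrowest of the group. Vcl (vinculin, the membrane anchor of the costamere) was at 0.07 (SE 0.06), Xirp1 (Xin, of the intercalated disc) at -0.05 (SE 0.07) and Cmya5 (myospryn, a desmin-binding protein) at -0.06 (SE 0.22).

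The 3 genes for titin-binding LIM and ankyrin repeat proteins all had slightly higher mean log2 signal in double-null than in WT ventricles. Ankrd1 encodes CARP, a stress-responsive ankyrin repeat protein found at the titin N2A region and in the nucleus. It had 16999, 17823 and 17285 units in double-null, 15751, 16516 and 17159 in Hdac2-null, 17290.1, 16013 and 17005 in Hopx-null, and 17010.1, 16030.1 and 16275 in WT ventricles. Double-null and WT overlapped through WT replicate 1, at 0.08 (SE 0.04, adjusted p = 0.677). Fhl1 and Fhl2, which encode LIM-domain proteins that bind titin, were at 0.01 (SE 0.05) and 0.06 (SE 0.09).

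Among 6 assembly factors and chaperones, 3 had higher and 3 lower mean log2 signal in double-null than in WT ventricles. Unc45b, the myosin chaperone, had 9516, 9032 and 8506 units in double-null, 10408, 10191 and 10022 in Hdac2-null, 8775, 9701 and 8838 in Hopx-null, and 8500.2, 9347 and 10149 in WT ventricles. Double-null arrays were below all Hdac2-null arrays, at -0.18 (SE 0.07, adjusted p = 0.381), and overlapped WT. Smyd1, a muscle methyltransferase that acts in myosin assembly and in transcription, had 4139.7, 4275 and 4154 units in double-null, 3933, 3426 and 4018 in Hdac2-null, 4326, 4104 and 4574 in Hopx-null, and 4002, 4433 and 4326 in WT ventricles. Hdac2-null differed from WT by -0.17 (SE 0.07, adjusted p = 0.925), with the ranges overlapping and the lowest signal on Hdac2-null replicate 2. Without that array the difference was -0.10. Double-null differed from WT by -0.02 (SE 0.07). Fhod3, a formin that organises actin in the sarcomere, was at 0.13 in double-null against WT (SE 0.09).

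The small heat shock protein genes spread widely or hardly at all. Hspb7 had 13261, 9858 and 12777 units in double-null, 9601, 13020.0 and 14198 in Hdac2-null, 11056, 10922 and 6859.9 in Hopx-null, and 6263, 11229 and 13881 in WT ventricles. The low arrays were WT replicate 1 and Hopx-null replicate 3, and the double-null against WT interval of -0.37 to 0.88 covered no change as well as changes beyond 1.5-fold in the higher direction. Without WT replicate 1 the difference of 0.26 became -0.07. These values are of the brightest Hspb7 probe set. A dimmer one had 3815 units on WT replicate 1 and was at -0.22 in double-null against WT (SE 0.11, adjusted p = 0.664). Another dimmer one was lowest on that array, at 734 units. Cryab encodes alpha-B crystallin, a chaperone of desmin and titin. It had 20942, 22603 and 20907 units in double-null, 19994, 19505 and 20366 in Hdac2-null, 21408, 20056 and 21649 in Hopx-null, and 22245, 20351 and 20032 in WT ventricles. Its double-null arrays were above all Hdac2-null arrays, at 0.11 (SE 0.05, adjusted p = 0.439, or 0.07 without double-null replicate 2 and 0.01 with its probe sets averaged), and overlapped WT. Bag3 encodes the co-chaperone that clears damaged filamin at the Z-disc, and had 1672, 1588 and 1586 units in double-null, 1608, 1666 and 1872 in Hdac2-null, 2082, 1860.2 and 1861 in Hopx-null, and 1823, 1907 and 1737 in WT ventricles. Double-null arrays were below all WT and Hopx-null arrays. The difference was -0.17 against WT (SE 0.08, adjusted p = 0.671) and -0.26 against Hopx-null (SE 0.08, adjusted p = 0.538).

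Trim63 encodes MuRF1, a ubiquitin ligase of the M-band that marks sarcomere proteins for degradation. It had 2742, 2963 and 3106 units in double-null, 3334, 3166 and 2947 in Hdac2-null, 4027, 3342 and 2963 in Hopx-null, and 3769.9, 3511 and 3179 in WT ventricles. All 3 double-null arrays were below all 3 WT arrays, and overlapped both single nulls. The difference against WT was -0.25 (SE 0.11, 95% interval -0.48 to -0.01, adjusted p = 0.671).

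Counts of separate genes and of low p-values over the 33 genes were set beside the share of all tested genes that met the same rule, and the group was chosen with earlier results known. In double-null against WT, 4 of 33 genes (Tcap, Mybpc3, Trim63 and Bag3) were lower on every double-null array than on any WT array, where 8.61% of all tested genes were, and none was higher on every array, where 6.31% were. At an unadjusted p under 0.05 there were 4 of 33, all lower, where 4.3% of all tested genes had such a p and were lower and 3.01% had one and were higher. The same 33 genes had no complete separation in Hdac2-null or in Hopx-null against WT. In all tested genes these shares were 3.89% higher and 5.69% lower for Hdac2-null, and 1.89% higher and 2.53% lower for Hopx-null. Only Smyd1 and Tcap had an unadjusted p under 0.05 in Hdac2-null against WT, both lower, where 2.99% of all tested genes did and were lower and 2.12% did and were higher, and no gene of the group had one in Hopx-null against WT, where 2.65% did. By this measure Hopx-null ventricles were the closest of the 3 null groups to WT, with 32 of 33 genes within 0.1 log2 units, where 66.4% of all tested genes were, and a median of 0.01. Double-null, Hdac2-null and Hopx-null were set against the same 3 WT arrays, so these comparisons are not independent.

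**Figure D3:**
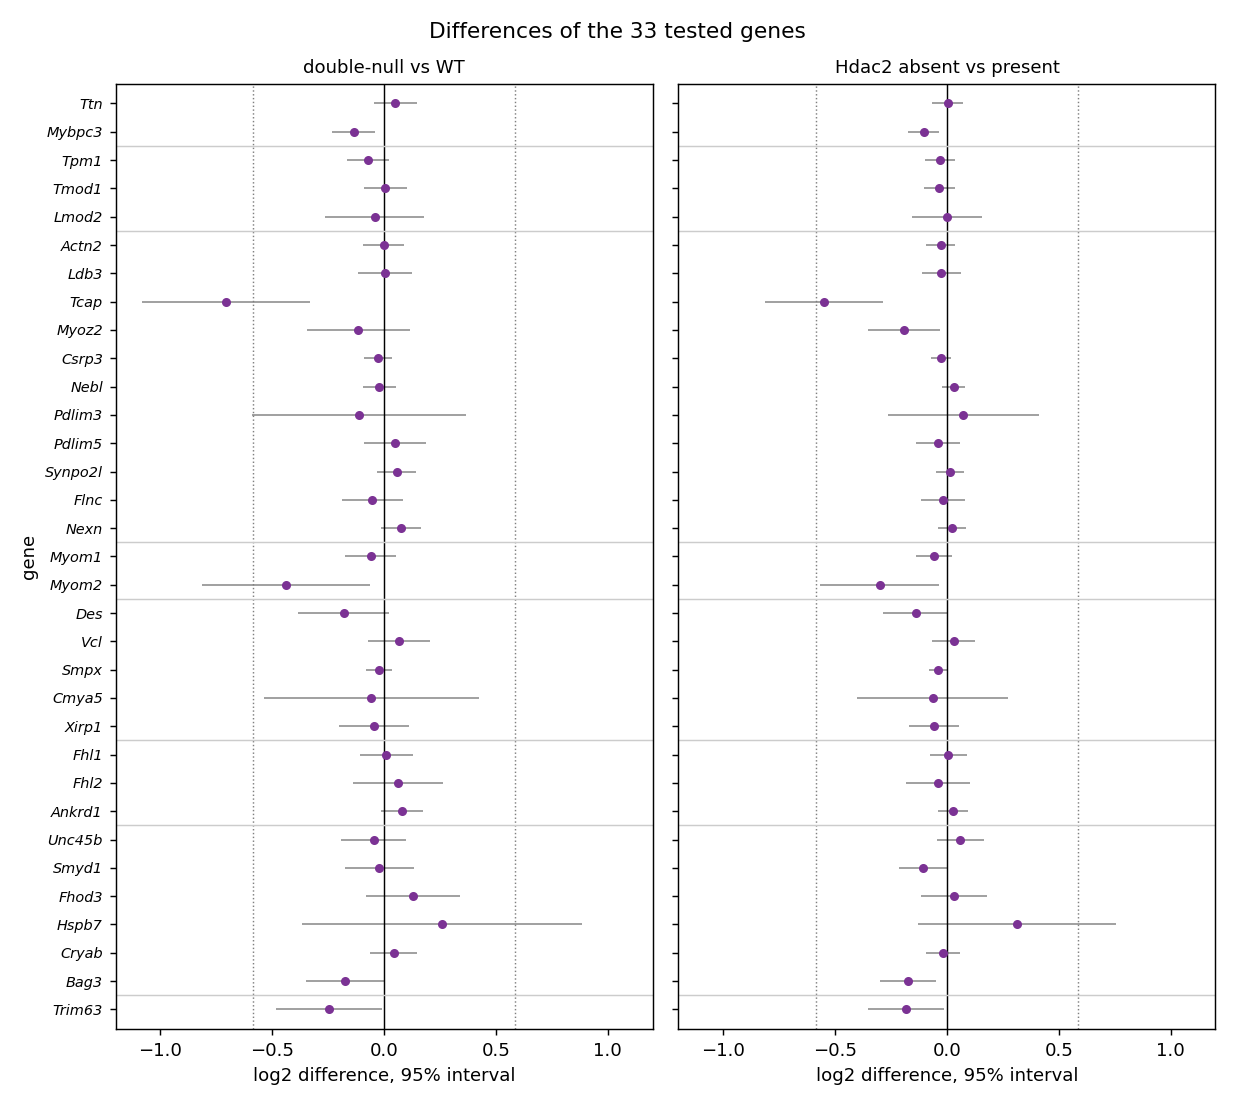
Log2 difference of each of the 33 tested genes (rows, by role) with its 95% interval, for double-null against WT (left) and Hdac2 absent against present (right); the dotted lines mark 1.5-fold. In both panels Tcap lies lowest, the interval of Hspb7 is the widest, and most others lie near 0.

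Between double-null and Hdac2-null, which differ in Hopx, 7 of 33 genes were completely separate and higher in double-null (Pdlim5, Nexn, Cryab, Smyd1, Ldb3, Vcl and Synpo2l), where 12.9% of all tested genes were. Another 7 were separate and lower (Tpm1, Unc45b, Des, Mybpc3, Tcap, Nebl and Pdlim3), where 12.7% were. At an unadjusted p under 0.05 there were 3 higher and 2 lower, where 6.45% and 4.89% of all tested genes were. These counts hold for the brightest probe set of each gene. Dimmer probe sets of some of the higher genes lay below 0 in this comparison. They were at -0.58 (SE 0.10) and 0.03 for Ldb3, at -0.33 and -0.21 for Smyd1, and at -0.09 for Cryab. Those of Pdlim5 and Synpo2l were of both signs. Between double-null and Hopx-null, which differ in Hdac2, 8 of 33 were separate and lower (Tcap, Mybpc3, Bag3, Tpm1, Des, Myom1, Xirp1 and Flnc), where 8.14% of all tested genes were. None was separate and higher, where 6.19% were. At an unadjusted p under 0.05 there were 6, all lower, where 5% of all tested genes were lower and 3.13% higher. The smallest adjusted p in the group was 0.538 there and 0.368 against Hdac2-null. With array weights, 5 genes of the group (Tpm1, Ankrd1, Unc45b, Cryab and Nexn) were called in double-null against Hdac2-null, with 951 of all 9667 tested genes.

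With the 6 arrays lacking Hdac2 set against the 6 that had it, 6 of 33 genes had an unadjusted p under 0.05, all lower, where 5.27% of all tested genes did and were lower and 3.69% did and were higher. They were Tcap, Mybpc3, Bag3, Myoz2, Myom2 and Trim63, and the smallest adjusted p was the 0.239 of Tcap. After Tcap came Mybpc3 at -0.10 (SE 0.03, adjusted p = 0.452) and Bag3 at -0.17 (SE 0.06, adjusted p = 0.460). None of the 33 was separate between the 2 sets of arrays, where 0.341% of all tested genes were higher and 0.269% lower. In the interaction of the 2 losses, 1 of 33 had an unadjusted p under 0.05, Tpm1 at -0.21 (SE 0.06, adjusted p = 0.942), where 4.18% of all tested genes did. Summed signals of markers of other cell types were also separate between some of these groups. For fibroblasts the Hdac2-null sums, 69143.5 to 71468 units, were below all WT sums, 72689 to 75971 units, with 8 of 8 markers above the floor. The fibroblast sums of double-null, 71079 to 75813 units, and of Hopx-null, 71304.5 to 77128 units, overlapped with both. Those of smooth muscle and epicardium overlapped between all genotypes. Summed endothelial signals were 13342 to 13729 units in double-null, 14737 to 15274 in Hdac2-null, 13244 to 15126 in Hopx-null and 14080.3 to 16087 in WT ventricles, with 7 of 7 markers above the floor. Summed leukocyte signals were 5326 to 6168 units in double-null, 5474 to 5968 in Hdac2-null, 5946 to 6479.8 in Hopx-null and 6443 to 7677 in WT ventricles, with 4 of 6 markers above the floor and Ptprc and Cd68 at or below it. Summed erythroid signals were 197 to 246 units in double-null, 556 to 1613 in Hdac2-null, 197 to 753 in Hopx-null and 235 to 475 in WT ventricles, with 3 of 5 measured markers above the floor and Hba-a1 and Hbb-bh1 at or below it. Their part in the differences was not tested.

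Probe sets of the same gene did not always give the same difference. Of 12 genes with several tested probe sets, 8 had probe sets of both signs in double-null against WT. Of 28 further probe sets of the group, 8 had an unadjusted p under 0.05 and were lower, where 4.58% of 15712 probe sets did, and 1 was higher, where 3.07% did. None of the 28 had an adjusted p under 0.05, where 0.0382% did. The probe sets named next were chosen after their values were seen. A second probe set of Ldb3, the PDZ and LIM protein cypher of the Z-disc, had 1187, 1119.7 and 1062 units in double-null, 1690.4, 1609 and 1741 in Hdac2-null, 1742, 1478 and 1298 in Hopx-null, and 1804, 1820.4 and 1653 in WT ventricles. All double-null arrays were below the other 9. It differed by -0.65 between double-null and WT (SE 0.10, adjusted p = 0.151), while the Ldb3 probe set with the highest signal was at 0.00 and the other at -0.09. In Smyd1, 2 dimmer probe sets were at -0.64 (SE 0.16, adjusted p = 0.553) and -0.40 (SE 0.11, adjusted p = 0.556), while the brightest was at -0.02. In Ttn, 2 were at -0.24 (SE 0.07 and 0.11, adjusted p = 0.556 and 0.645) and another was at 0.07 (SE 0.03, adjusted p = 0.644). In Nebl, 1 was at -0.45 (SE 0.14, adjusted p = 0.599) and another at 0.31 (SE 0.23, adjusted p = 0.739), while the brightest was at -0.02. Among the further probe sets, 1 of Ttn and 1 of Pdlim5 were at or below the floor on some arrays (10 and 9 of 12 arrays above it), so their differences depend on the floor. All 3 probe sets of Myom2 had the same sign, at -0.44, -0.46 and -0.74. Which transcripts each probe set reads was not tested.

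**Figure D4:**
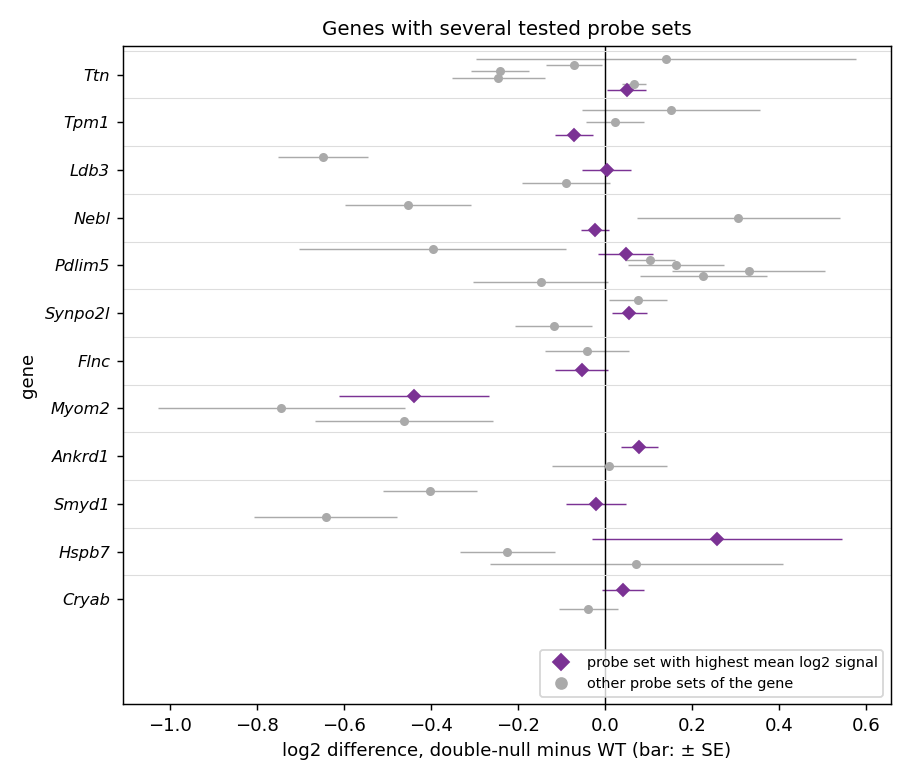
Log2 difference between double-null and WT (horizontal axis, bars ± SE) for each tested probe set of the 12 genes that had several (rows). Diamonds mark each gene's brightest probe set, used elsewhere in the text, and circles the others; for Ldb3 and Smyd1 the diamonds lie near 0 and circles reach -0.65 and -0.64.

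The spread between arrays of a genotype was small. The median within-genotype SD was 0.084 log2 units over the 33 genes (0.0256 to 0.403), against 0.135 over all tested genes and 0.114 over the 6837 that were at least as bright as the dimmest of the 33. That dimmest gene, Pdlim3, averaged 613 units, while Csrp3, the brightest, averaged 31167. No set of genes matched in brightness to the 33 was compared. After each genotype's mean was removed, the 528 pairs of genes had a median correlation of 0.06 over the 12 arrays, and 55.3% were positive. The pairs that varied most alike were Ldb3 with Vcl (0.976), Fhl2 with Fhod3 (0.908), Mybpc3 with Myoz2 (0.857) and Xirp1 with Bag3 (0.855). Those most opposed were Nebl with Pdlim3 (-0.934) and Myoz2 with Csrp3 (-0.831). These are descriptions of 12 arrays that share a normalisation, and are given without a test. They hold for the brightest probe set of each gene. In Hopx-null ventricles the brightest Ldb3 probe set was lowest on replicate 2 (17306.5 units), where the next brightest was highest (11744 units).

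Promoter windows of 250 bases before the transcript start were searched on both strands for the CArG box, bound by serum response factor, and the MEF2 site. They were also searched for 3 words, CATTCC (the core of the TEAD motif), AGATAA (a core of the GATA motif) and TATAAA (the TATA box). RefSeq windows of GRCm38.p6 were held for 30 genes of the list, in 40 windows. A CArG box was in 8 of the 40 (20%), the windows of 6 genes, with 1 box counted in both overlapping windows of Ldb3, against 1.47% of all 32851 windows, and a MEF2 site in 7 (17.5%), against 2.92%. CATTCC was in 22.5% against 12.6%, AGATAA in 17.5% against 9.99% and TATAAA in 12.5% against 12.4%. CArG boxes stood before Fhl1, Fhl2, Ldb3, Myom1, Nebl and Vcl, and MEF2 sites before Fhl2, Mybpc3, Myoz2, Synpo2l, Ttn and Xirp2. Shown are the windows of 2 pairs whose brightest probe sets varied alike, Ldb3 with Vcl and Mybpc3 with Myoz2. The window of Fhl2, which holds both motifs, is shown as well. Each window is given 5′ to 3′ with CArG and MEF2 matches in capitals. Nebl and Vcl, which also both hold a CArG box, varied oppositely (-0.808). Fhod3 and Xirp1, each from another pair that varied alike, had no window. Whether a shared motif goes with shared variation was not tested. The windows are chr14:34588682-34588931 on the minus strand (Ldb3), chr14:20929148-20929397 on the plus strand (Vcl), chr2:91117894-91118143 on the plus strand (Mybpc3), chr3:123034988-123035237 on the minus strand (Myoz2) and chr1:43196762-43197011 on the minus strand (Fhl2).
Ldb3: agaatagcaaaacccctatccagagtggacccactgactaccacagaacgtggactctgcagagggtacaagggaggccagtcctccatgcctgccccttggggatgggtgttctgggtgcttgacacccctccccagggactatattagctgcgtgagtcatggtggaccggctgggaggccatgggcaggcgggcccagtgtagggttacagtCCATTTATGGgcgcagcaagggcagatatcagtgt
Vcl: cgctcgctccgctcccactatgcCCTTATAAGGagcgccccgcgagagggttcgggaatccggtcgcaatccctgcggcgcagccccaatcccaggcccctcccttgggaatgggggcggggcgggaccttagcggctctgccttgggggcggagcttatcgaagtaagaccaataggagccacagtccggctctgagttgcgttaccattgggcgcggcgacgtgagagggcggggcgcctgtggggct
Mybpc3: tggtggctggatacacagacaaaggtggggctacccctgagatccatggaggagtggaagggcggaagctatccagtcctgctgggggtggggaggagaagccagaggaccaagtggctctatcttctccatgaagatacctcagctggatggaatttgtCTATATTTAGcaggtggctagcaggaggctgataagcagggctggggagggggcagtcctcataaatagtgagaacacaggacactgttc
Myoz2: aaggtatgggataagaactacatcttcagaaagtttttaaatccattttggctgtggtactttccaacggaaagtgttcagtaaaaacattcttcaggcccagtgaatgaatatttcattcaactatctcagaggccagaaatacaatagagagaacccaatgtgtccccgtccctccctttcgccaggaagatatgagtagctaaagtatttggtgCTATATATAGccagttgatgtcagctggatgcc
Fhl2: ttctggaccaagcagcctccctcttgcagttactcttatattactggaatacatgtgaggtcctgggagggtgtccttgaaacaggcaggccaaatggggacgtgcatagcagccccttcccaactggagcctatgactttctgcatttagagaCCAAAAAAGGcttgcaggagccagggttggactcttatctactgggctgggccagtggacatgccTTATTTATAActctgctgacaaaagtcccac
The CArG box began 35 bases before the start in Ldb3, 227 in Vcl and 96 in Fhl2. The MEF2 site began 90 bases before it in Mybpc3, 33 in Myoz2 and 31 in Fhl2, where it overlaps the TATAAA word. A match describes these letters and not a bound site.

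Other muscle structure genes, from a list of 88 that covers further Z-disc and actin-binding proteins, the dystrophin complex, integrin adhesions, the intercalated disc and chaperones, were read beside the group. Of these, 63 were tested, and none was called in any of the 7 comparisons. In double-null against WT, 29 were higher and 34 lower, with a median of -0.02, where 54.6% of all tested genes were lower. At an unadjusted p under 0.05, 2 were higher and 5 lower, where 3.01% and 4.3% of all tested genes were. The smallest p belonged to Cavin4, a caveola protein of muscle, which averaged 939.7 ± 162 units in double-null, 1021 ± 39.8 in Hdac2-null, 1657 ± 323 in Hopx-null and 1577 ± 408 in WT ventricles (SD, n = 3 each). It differed by -0.73 between double-null and WT (SE 0.19, adjusted p = 0.594). Next came the small heat shock protein gene Hspb3 at -0.38 (SE 0.12, adjusted p = 0.621), and the sarcoglycan gene Sgca was at -0.53 (SE 0.21, adjusted p = 0.669). Vim, the intermediate filament gene of non-muscle cells, was at 0.07 (SE 0.02, adjusted p = 0.652).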

How the data were processed

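RNA of 12 ventricles, 3 per genotype, was measured on single-colour arrays. The deposited table holds 1 linear intensity per probe set and array for each of 45101 probe sets. MAS5 is named in the submitters' processing notes, but 48.6% of the deposited intensities lie within 1 unit of 4.5, so the summary and normalisation are uncertain and were left as deposited. Before the log2 step, lower signals were set to a floor of 82.5, which is 0.1 times the average 2% trimmed mean of an array. Platform annotation assigned 34945 probe sets to 1 gene, and symbols were updated through GRCm38.p6 gene tables (34741 matched). Each gene was read from its brightest probe set (mean log2 signal). Of 18193 genes, 12433 reached the 40th percentile of signal (4.76 units), and 9667 that were not at the floor on all arrays were tested.

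Genotype means came from 1 fit to the 12 arrays in limma 3.58.1 (R 4.3.3, moderated with an intensity trend, 8 residual degrees of freedom). The Benjamini-Hochberg adjustment was made per comparison over all tested genes, with a threshold of 0.05. The labels call the arrays of a genotype biological replicates. Their number limits the precision: the median SE was 0.06 over the 33 genes and 0.11 over all. The genes and lists were chosen with earlier results of these data known. Values on every array are given for the 20 genes named by rule: the 3 smallest p-values in each comparison, a log2 range above 1 over the arrays, and the brightest gene of each of 8 roles. Replicate numbers were checked for pairing. Same-numbered arrays deviated together in Hopx-null and WT (correlations across genes of 0.423, 0.419 and 0.154). They also did so in Hdac2-null and Hopx-null (0.206, 0.170 and 0.122) and in double-null and Hdac2-null (0.251, 0.0961 and 0.254). Each remaining pair of genotypes had at least 1 negative correlation between same-numbered arrays. Alternatives covered floor, filter, normalisation, probe set choice, weights, Xist, a replicate block and each array left out.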

Additional observations from a re-analysis of the deposited data

Results flagged for a closer look

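In 8 of the 33 tested genes, the loss of 1 gene went with differences of opposite sign depending on the other. Every array of the null group lay on one side of its comparison group's mean log2 signal in 1 setting, and on the other side in the other. Of all 9667 tested genes, 12.3% met the same rule. The interaction was tested by limma over all genes, and its adjusted p was 0.942 for each of the 8. Loss of Hdac2 was read with Hopx absent (double-null minus Hopx-null) and with Hopx present (Hdac2-null minus WT). For Tpm1 these were -0.14 and 0.07, an interaction of -0.21 (SE 0.06). For Lmod2 they were -0.09 and 0.09 (interaction -0.18, SE 0.14), for Ldb3 0.05 and -0.10 (0.14, SE 0.08), for Nexn 0.07 and -0.02 (0.0926, SE 0.06), and for Fhl1 0.07 and -0.06 (0.13, SE 0.08). With all probe sets of Tpm1 averaged, its values were 0.06 and 0.17, both above 0, and the interaction was -0.11. The dimmer probe sets of Ldb3 were lower in both settings. With Hopx absent they were at -0.41 and -0.12. With Hopx present they averaged 1680 and 9731 units in Hdac2-null, and 1759 and 10512 in WT ventricles. Loss of Hopx was read with Hdac2 absent (double-null minus Hdac2-null) and with Hdac2 present (Hopx-null minus WT). For Des these were -0.18 and 0.10 (interaction -0.28, SE 0.13), for Xirp1 -0.06 and 0.08 (-0.14, SE 0.10), and for Bag3 -0.08 and 0.08 (-0.17, SE 0.11).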

How the results depend on the processing

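No gene of the group was called under any alternative, with 2 exceptions. With array weights, 5 were called in double-null against Hdac2-null, where 951 of 9667 tested genes were. These were Nexn and, with their log2 differences, Tpm1 (-0.12, adjusted p = 0.0275), Ankrd1 (0.13, 0.0263), Unc45b (-0.19, 0.0222) and Cryab (0.15, 0.0245). Without array weights, a dimmer probe set of Ankrd1 was at -0.17 (SE 0.13) in this comparison. With probe sets averaged, Ankrd1 was at -0.05 and Cryab at 0.01. Without WT replicate 3, Tcap alone was called in Hdac2 absent against present, at -0.65 (adjusted p = 0.0368), where 27 of 9662 were; leaving out single arrays gave 0 to 1 calls there. The cause was not tested. In double-null against WT, Tcap ran from -0.90 to -0.56 over 25 alternatives, always lower, with adjusted p from 0.0735 to 0.981. The replicate block could not move a log2 difference, because every genotype holds each replicate number. The medians were therefore fixed by the design (-0.02 in double-null against WT) and say nothing of stability. With the block, no call of the group changed. The group's median log2 difference in double-null against WT was 0.00118 with arrays centred on their median, and -0.0513 to -0.0079 with single arrays left out. In Hdac2-null against WT it ran from -0.0518 to -0.0181 with single arrays left out. In double-null against Hdac2-null it was -0.0499 with probe sets averaged, and -0.00868 to 0.0371 with single arrays left out. In double-null against Hopx-null it was -0.00369 with centred arrays and -0.0558 with probe sets averaged. In the interaction it was -0.0696 with probe sets averaged, -0.0169 with array weights and -0.0359 to 0.0212 with single arrays left out. The SD of the group's median between arrays of a genotype was 0.0247. Of the 35 genes, Synm and Trim54 were limited by the floor, as were single further probe sets of Ttn and Pdlim5.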
